A study of Mus musculus with 30 samples.

Results

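The later response of wildtype cells to Wnt activation was described from 6 of the 30 RNAseq libraries of a mouse embryonic stem cell (ESC) differentiation series. These were the 3 d3 wildtype libraries (24 h of CHIR) and the 3 d2.5 wildtype libraries (12 h of CHIR), taken by their labels, and the d3 group was compared with the d2.5 group across all genes. The cells were of the ES-Bruce4 strain, grown in N2B27 medium with FGF2 from the first day. CHIR, an inhibitor of the kinase GSK3 that acts as a Wnt agonist, was added at d2 and was present in every library of both groups. For reference, 3 wildtype libraries from d2, before CHIR, and the matching d2.5 and d3 libraries of Nr6a1-/- cells were used. The Nr6a1-/- cells came from 1 ESC clone with CRISPR/Cas9 deletions in exon 4, so that a difference between genotypes and a difference between clones cannot be told apart. The medium was renewed every 24 h, so that time in CHIR and time since the last medium change also cannot be told apart between d2.5 and d3. The labels do not say whether replicates came from separate cultures, so that the spread between libraries may be technical. The p-values measure this spread as estimated over all 30 libraries of the series, not over the compared libraries alone.

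Wnt signalling stabilises beta-catenin, which enters the nucleus and acts with the TCF/LEF factors on target genes. Some of these genes encode feedback inhibitors (Axin2, Nkd1, Notum, the Dkk proteins), and others encode transcription factors of the posterior embryo (T, Sp5, Sp8 and the Cdx genes). Neuromesodermal progenitors (NMPs), which lie at the caudal pole of the elongating embryo and contribute to both spinal cord and paraxial mesoderm, arise where Wnt and FGF signals meet. The Cdx factors act upstream of the Hox genes, which are switched on in order of paralogue number along each cluster and give the trunk its regional identity.

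The 6 libraries held 1935182 to 2506686 counts, with a count in 18611 to 19280 genes. Levels are given as CPM, a gene's counts relative to its library's total after TMM scaling. A count of 0 in 1 of these libraries allows up to 1.2 to 1.52 CPM, and limits and intervals cover counting error only. Pearson correlations of log2 CPM were 0.971 to 0.975 among d2.5 libraries, 0.978 to 0.979 among d3 libraries and 0.955 to 0.960 between the groups. The test was edgeR's quasi-likelihood test in 1 model of all 30 libraries, and a gene counts as called where its Benjamini-Hochberg FDR is below 0.05. These are bulk RNA libraries, in which a change in the share of cells that express a gene and a change in RNA per cell cannot be told apart.

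Between 12 h and 24 h of CHIR, 1394 of 12149 tested genes (11.5%) were called, 718 higher (5.91%) and 676 lower (5.56%) at d3. Most changes were small: 937 of the calls (67.2%) were under 2-fold. At least 2-fold, 253 genes (2.08%) were higher and 204 (1.68%) lower, and at 4-fold or more 93 were higher and 37 lower. The median log2 fold change over all tested genes was 0.0066. All 3 d3 libraries lay above all 3 d2.5 libraries for 1883 genes (15.5%) and below them for 1782 (14.7%), and 1353 of the 1394 calls were among these. Of the 1394 calls, 625 were also called in each of the 6 fits that left out 1 of these libraries, and all 1394 kept their sign.

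**Figure D1:**
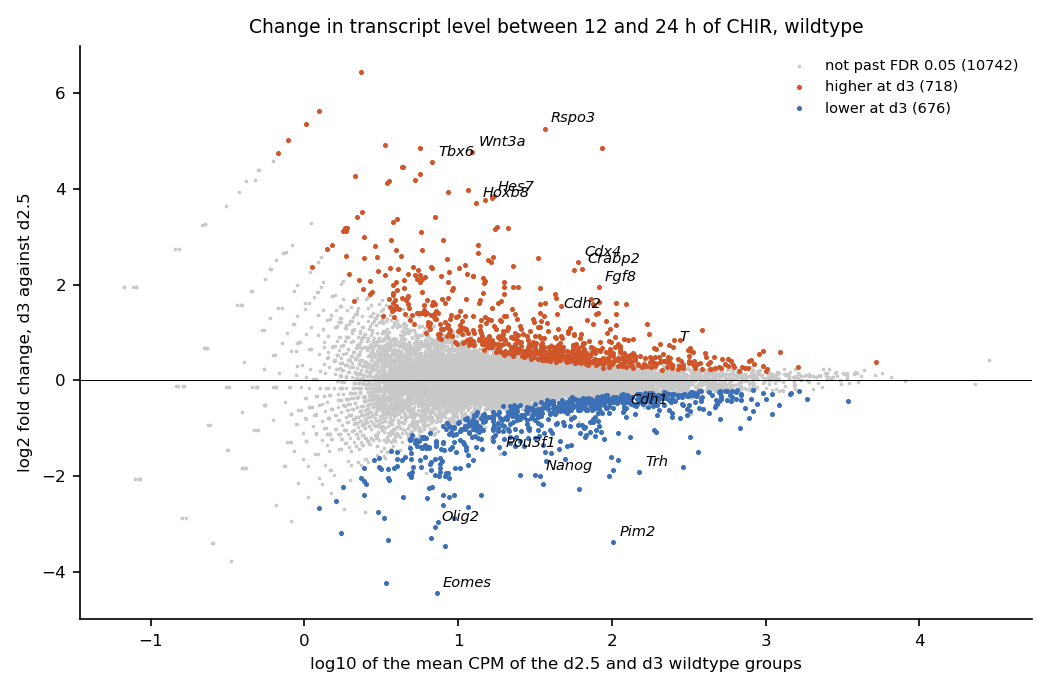
Each point is 1 tested gene, with the log10 of its mean CPM at d2.5 and d3 on the x axis and the log2 fold change, d3 against d2.5, on the y axis. The 718 genes called higher are orange, the 676 called lower are blue, genes at 0 in both groups are not drawn, and a few genes of very low level lie above Rspo3, the largest rise that met the naming rule.

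Known Wnt target genes went both ways over this interval. Of 31 tested Wnt/beta-catenin target and feedback genes, 6 rose, 4 fell and 21 were not called, against 5.91% of all tested genes called higher and 5.56% lower, with a median log2 fold change of 0.18. Axin2, which encodes a scaffold of the beta-catenin destruction complex and is a widely used Wnt reporter, was at 10.5, 11.2 and 9.64 CPM at d2, 157, 113 and 130 CPM at d2.5, and 180, 152 and 162 CPM at d3. The d2.5 and d3 values overlapped, and the log2 fold change from d2.5 to d3 was 0.30 ± 0.10 (SE, n = 3 and 3, edgeR FDR = 0.0525). This call depended on the fit, with an FDR of 0.00865 to 0.306 over 16 alternatives. Sp5, a transcription factor gene induced directly by beta-catenin, was at 108, 108 and 113 CPM at d2.5 and 141, 134 and 117 CPM at d3, a log2 fold change of 0.25 ± 0.10 that did not pass the test (edgeR FDR = 0.084). For both genes the change over the later 12 h was lower than over the first 12 h by a test of the difference itself. The later minus the earlier log2 fold change was -3.38 for Axin2 (edgeR FDR = 2.15e-14) and -4.93 for Sp5 (edgeR FDR = 3.35e-18). This test called 1187 of all tested genes (9.77%), and 15 of the 31 target genes, 13 of them with the lower change in the later interval, against 5.71% of all tested genes. Both intervals share the d2.5 libraries.

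The 4 target and feedback genes that fell encode parts of the pathway itself. Dkk4, a secreted antagonist of the LRP co-receptors, was at 28.1, 14.2 and 29.3 CPM at d2.5 and 11.6, 12 and 9.2 CPM at d3, so that the groups did not overlap (log2 fold change -1.14 ± 0.27, edgeR FDR = 0.00374). Lef1, the TCF/LEF family factor, went from 203, 197 and 211 CPM to 156, 145 and 145 CPM (log2 fold change -0.45 ± 0.10, edgeR FDR = 0.00219). Nkd1, an inhibitor of Dishevelled, had a log2 fold change of -0.49 and was past the threshold in 13 of 16 alternative fits. Lgr4, an R-spondin receptor gene, had a log2 fold change of -0.56, its groups overlapped, and it passed in 10 of 16.

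Cdx4 was the target gene with the largest rise. Its 3 libraries were at 20.5, 16.8 and 18.2 CPM at d2.5 and at 106, 99.9 and 102 CPM at d3, 5.53-fold higher (log2 fold change 2.47, edgeR FDR = 4.54e-16). Cdx1 was at 127, 117 and 109 CPM and then 262, 215 and 215 CPM (1.95-fold, edgeR FDR = 1.88e-07). T, which encodes Brachyury, the T-box factor of the primitive streak and notochord, went from 202, 179 and 192 CPM to 318, 312 and 296 CPM (1.62-fold, edgeR FDR = 3.72e-06). Sp8, a zinc finger gene of the tailbud and limb ridge, was at 52.4, 38.1 and 95.6 CPM at d2.5 and 95.6, 134 and 138 CPM at d3, so that the highest d2.5 library reached the lowest d3 library. Its log2 fold change was 0.99, and it stayed past the threshold in all 16 alternative fits, from 0.74 to 1.44. Sox9, an SRY-box factor gene, and Notum, which encodes a secreted Wnt deacylase, had log2 fold changes of 1.40 and 0.76 and were past the threshold in 9 and 12 of 16 alternative fits. Cdx1 and T had each risen from d2 levels of at most 5.84 CPM during the first 12 h, and the later change was smaller for both by the test of the difference (edgeR FDR = 2.15e-14 for Cdx1 and 1.5e-17 for T).

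The bases upstream of these genes were searched for the TCF/LEF core letters CTTTGAT and for CTTTGAA, and also for CTTTGTT and for CTTTGTA, on either strand, in the 250 bases before the annotated start of the RefSeq promoter table (GRCm38.p6). Of the 6 risers, 3 had an entry in that table and 2 of these, T and Sp8, held 1 match each, read as CTTTGAA on the other strand. The RefSeq start of Sp8 lies inside the gene as drawn by the GENCODE annotation used for positions. Of all 32851 promoter windows, 14.8% held at least 1 of these matches. The windows around both are shown because these are the promoters of rising target genes in which the TCF/LEF letters were found, with the match in capitals. A match is a description of the letters and not a site of binding. The T window lies on chr17:8434177-8434206, plus strand, with the match starting 235 bases before the start, and the Sp8 window on chr12:118847171-118847200, plus strand, with the match 51 bases before it.
T: ctgctcggtacTTCAAAGggtgtcccgccc
Sp8: ctccgcggcacTTCAAAGccggagagggag

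Several ligands of the pathway rose. Of 27 tested Wnt ligands, R-spondins, secreted antagonists and receptors, 9 rose and 2 fell, against 5.91% and 5.56% of all tested genes, with a median log2 fold change of 0.43. Rspo3 (chr10:29452416-29535867), whose product sustains Wnt receptors at the cell surface, had the largest rise of all genes that met the naming rule. It was at 3.33, 1.02 and 1.01 CPM at d2.5 (7, 2 and 2 counts) and 69, 72.7 and 72 CPM at d3. The level was 38.1-fold higher (log2 fold change 5.25, edgeR FDR = 8.62e-17), a fold that rests on few d2.5 counts. Wnt3a (chr11:59248033-59290752), the Wnt ligand of the tailbud, was at 0.953, 0 and 1.52 CPM and then 23.7, 24.4 and 23.2 CPM (27.1-fold, edgeR FDR = 4.19e-10). Both genes were near the detection limit after 12 h of CHIR and well above it in all 3 libraries after 24 h.

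The other ligands that rose had been detected by d2.5. Wnt6 went from 12.4, 19.3 and 11.1 CPM to 62.8, 53.4 and 46.8 CPM, and Wnt5b from 17.2, 16.8 and 16.7 CPM to 50.7, 51.6 and 50.8 CPM. Wnt5a, a ligand of the beta-catenin-independent branch, was at 6.19, 7.62 and 3.54 CPM and then 15.4, 27.2 and 28 CPM. Wnt10a rose by 2.72 on the log2 scale from 9 counts over its 3 d2.5 libraries. Wnt3 and Wnt8a, which encode ligands of the early streak, were not called, with log2 fold changes of 0.25 and -0.22. Of the receptor genes, Fzd10 rose from 185, 127 and 221 CPM to 280, 276 and 334 CPM and lost its call without d2.5 replicate 2. Ror1, a Wnt5a receptor gene, and the secreted antagonist gene Sfrp1 fell, by 2.10 and 0.75 on the log2 scale, Ror1 with a call in 10 of 14 alternative fits.

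Of 23 tested NMP and caudal epiblast genes, 16 rose and 0 fell, with a median log2 fold change of 0.85, against 5.91% of all tested genes called higher. Over the first 12 h the median had been larger, at 3.99. The test of the difference called 17 of the 23, 14 of them with the lower change in the later interval, against 5.71% of all tested genes. Fgf8 and Fgf17 encode FGF ligands of the tailbud. Fgf8 was at 35.3, 34.6 and 31.9 CPM at d2.5 and 143, 122 and 127 CPM at d3 (3.84-fold, edgeR FDR = 6e-12). Fgf17 was at 4.76, 5.08 and 4.05 CPM and then 24.6, 27.6 and 28 CPM (5.73-fold, edgeR FDR = 5.17e-10). Grsf1, an RNA-binding protein gene, rose 2.08-fold from 240, 240 and 266 CPM, Evx1 1.85-fold and Cdx2 1.56-fold, each with no overlap between the groups. Nr6a1 itself, the nuclear receptor gene that the series is about, was at 83.5, 87.1 and 86.4 CPM at d2, 102, 89.4 and 102 CPM at d2.5 and 178, 186 and 167 CPM at d3. It had not passed the test over the first 12 h (log2 fold change 0.19) and rose 1.81-fold over the next 12 h (edgeR FDR = 1.9e-06).

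The pair of genes by which NMPs are most often recognised are T and Sox2. T rose, as given above, whereas Sox2, the neural and pluripotency factor gene, was at 87.2, 84.3 and 94.6 CPM at d2.5 and 74.8, 82.4 and 78.4 CPM at d3, a log2 fold change of -0.18 ± 0.14 that did not pass the test (edgeR FDR = 0.476). Nkx1-2, a homeobox gene of the caudal epiblast, was at 103, 109 and 99.7 CPM and then 133, 134 and 120 CPM (log2 fold change 0.31, edgeR FDR = 0.193). Fst, which encodes the activin antagonist follistatin, was at 205, 181 and 188 CPM and then 190, 175 and 172 CPM. Nkx1-2 and Fst had reached these levels from 3.44 to 9.03 CPM at d2.

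The Hox genes had the largest median rises of the 24 gene lists examined. Of 13 tested genes of groups 1 to 5 and 11 of groups 6 to 9, 10 of each rose, each at least 2-fold, and 0 fell. Among all tested genes, 5.91% were called higher and 5.56% lower. The median log2 fold change was 1.73 for groups 1 to 5 and 3.16 for groups 6 to 9. For the first 12 h, when 25.4% of all tested genes were called, the corresponding medians were 3.61 and 1.88, or 2.65 for groups 1 to 5 with genes at 0 in a group set to their bound against 3 counts. The test of the difference between the intervals called 4 of the 13 anterior genes, all with the smaller change in the later interval, and 0 of the 11 trunk genes. It called 9.77% of all tested genes. The test had little power for trunk genes near 0 at d2, whose change over the first 12 h rests on few counts. At d2, Hoxc8 had 0, 1 and 0 counts and Hoxb8 1, 1 and 0. Their differences were 0.35 (edgeR FDR = 0.996) and 1.21 (edgeR FDR = 0.757). The 0 calls thus do not show that the trunk genes changed equally in both intervals. None of the 10 tested genes of groups 10 to 13 was called, and 1 of them passed in the Nr6a1-/- cells over the same interval. The summed wildtype level of these 10 genes was 4.55 to 6.67 CPM at d2.5 and 5.79 to 11.5 CPM at d3. Of them, 6 had 0 counts over all libraries of d2.5 or of d3. With levels this low in both groups, a change could hardly have been called.

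Within groups 1 to 5 the genes differed in what they did over this interval. Hoxa2 was at 8.1, 4.57 and 7.59 CPM at d2.5 and 5.31, 7.37 and 7.6 CPM at d3, so that the groups overlapped (log2 fold change 0.01, edgeR FDR = 0.994). Hoxb1 rose from 67.2, 62 and 66.8 CPM to 137, 153 and 150 CPM (2.24-fold, edgeR FDR = 1.85e-09). Hoxb4 rose from 6.19, 3.05 and 5.57 CPM to 31.4, 22.1 and 30 CPM, and Hoxb5 from 0.476, 0.508 and 2.53 CPM to 9.17, 12 and 9.6 CPM. Hoxa5 rose 2.09-fold, from 9.05, 6.1 and 6.58 CPM. The calls of Hoxb2 and Hoxd1 were not stable, at 6 of 16 and 6 of 13 alternative fits.

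In groups 6 to 9, genes of all 4 clusters rose. Hoxc8 went from 2.86, 1.02 and 2.53 CPM to 32.3, 35 and 28.4 CPM (14.5-fold, edgeR FDR = 3.2e-11) and Hoxb8 from 1.43, 0.508 and 3.54 CPM to 29, 20.7 and 23.2 CPM (13-fold, edgeR FDR = 5.26e-09). Hoxb9 went from 4.76, 2.54 and 3.04 CPM to 32.8, 29.5 and 32 CPM (8.93-fold, edgeR FDR = 1.37e-10), and Hoxb6 from 3.81, 5.08 and 2.02 CPM to 22.7, 23.9 and 23.2 CPM. Hoxa7 and Hoxb7 rose 5.05-fold and 4.52-fold. Hoxd9 had 1 count over its 3 d2.5 libraries and 28 at d3, a ratio of 25.1 with an exact 95% interval of 4.15 to 1026. The summed level of the 11 trunk genes was 20.3 to 26.7 CPM at d2.5 and 171 to 188 CPM at d3, so that it was low but detected at 12 h in every library.

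**Figure D2:**
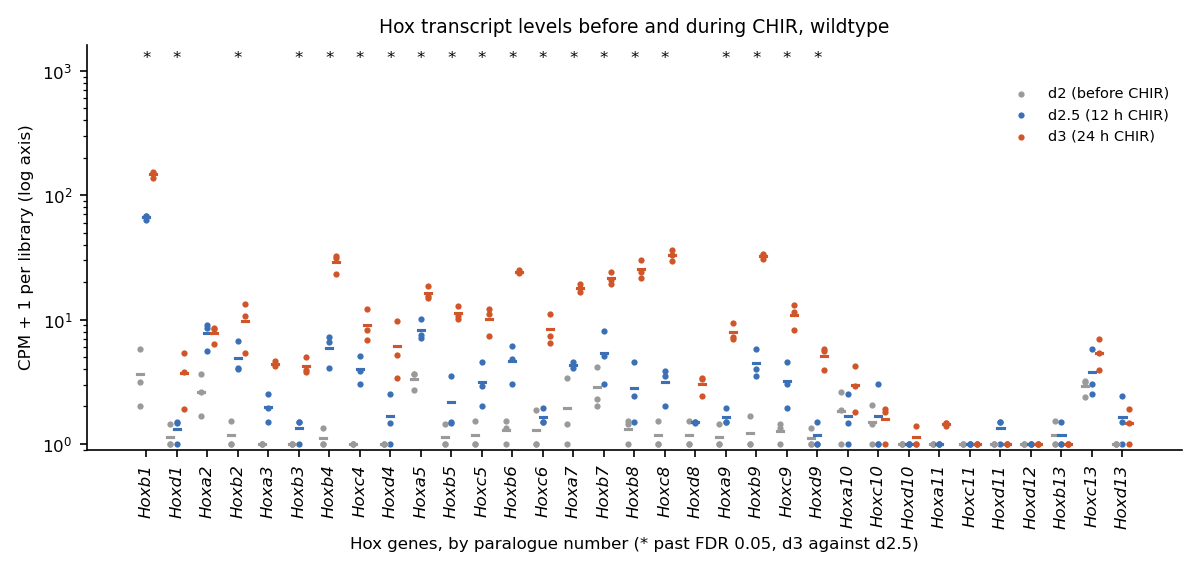
Each dot is 1 wildtype library at d2 (grey), d2.5 (blue) or d3 (orange), with CPM + 1 on a log axis, short bars at the group means and an asterisk over genes called between d2.5 and d3. Hoxb1 was at 62 CPM or more at d2.5, 10 of the 11 genes of groups 6 to 9 are called higher at d3, and none of groups 10 to 13 is called.

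The list of the 12 largest rises also held a pair of RNAs transcribed antisense to Hox genes. Hoxaas3 (chr6:52175217-52215076, plus strand) overlaps Hoxa3, Hoxa4, Hoxa5, Hoxa6 and Hoxa7 on the other strand, and was at 9.05, 4.06 and 4.05 CPM at d2.5 and 160, 180 and 164 CPM at d3 (28.8-fold, edgeR FDR = 5.78e-22). Hoxb5os (chr11:96291024-96306910, minus strand) overlaps Hoxb5 and Hoxb6, and went from 1.43, 1.02 and 3.54 CPM to 33.3, 21.6 and 28.4 CPM (13.6-fold, edgeR FDR = 1.6e-09). Whether reads were counted by strand is not stated, so that reads of these genes and of the Hox genes they overlap cannot be told apart with certainty. On the same strand, Hoxc8 lies within the annotated span of Hoxc5.

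Genes of the presomitic mesoderm, the tissue that NMPs feed and that later forms somites, also rose. Of 22 tested presomitic and paraxial mesoderm genes, 9 rose and 0 fell, against 5.91% and 5.56% of all tested genes, with a median log2 fold change of 1.21. The rest of the 29 genes of this list were too low to be tested, among them Msgn1, a further presomitic marker. Tbx6, the T-box gene that marks and specifies presomitic fate, was at 0.476, 0.508 and 0.506 CPM at d2.5 and 15.4, 14.3 and 9.2 CPM at d3. From 3 counts against 86, the ratio was 25.7 with an exact 95% interval of 8.50 to 127 (edgeR FDR = 3.45e-09). Hes7, an oscillating repressor of the segmentation clock, went from 2.86, 2.54 and 1.01 CPM to 36.7, 26.2 and 30 CPM (14-fold, edgeR FDR = 1.72e-11). Neither gene had passed the test over the first 12 h, and for both the later change was larger by the test of the difference (edgeR FDR = 0.0142 for Tbx6 and 0.00605 for Hes7). Both genes were named for the size of their later rise, which enters that difference, so that the choice of genes favours this outcome.

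The Notch ligand genes Dll3 and Dll1, which act in the clock, rose as well. Dll3 was at 7.15, 11.2 and 4.55 CPM at d2.5 and 30.9, 29.9 and 34.8 CPM at d3 (4.18-fold), and Dll1 at 5.72, 3.56 and 9.61 CPM and then 26.1, 25.3 and 16.8 CPM (3.56-fold). Cited1, a transcriptional co-regulator gene, rose 3.01-fold from 74.3, 50.8 and 59.2 CPM. The other 13 tested members of the list were not called. Among them, Foxc1, a forkhead gene, had 6 counts over the d2.5 libraries and 17 over the d3 libraries, Pax3, a paired-box gene of the dorsal somite, 8 and 26, Tcf15, a somite gene, 39 and 32, and Meox1, another, 1 and 0. Over the 20 tested Notch pathway and clock genes, 3 rose and 2 fell, against 5.91% and 5.56% of all tested genes. The fallers were Hes6 and Rfng, by 0.48 and 0.66 on the log2 scale, and the list's median log2 fold change was 0.05. Rfng lost its call in 8 of 16 alternative fits and Hes6 in 1.

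Aplnr, the apelin receptor gene of gastrulating mesoderm, and Ptgs1, the cyclooxygenase gene, were also near 0 at d2.5. Aplnr was at 0.953, 0 and 0.506 CPM and then 11.6, 10.6 and 10.4 CPM, and Ptgs1 at 0.953, 0 and 0 CPM and then 8.69, 13.8 and 10.4 CPM. From 2 counts at d2.5, the ratio for Ptgs1 was 33.2 with an interval of 8.86 to 279. Arl4d, a small GTPase gene, went from 1.43, 1.02 and 0.506 CPM to 16.9, 19.3 and 12 CPM.

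**Figure D3:**
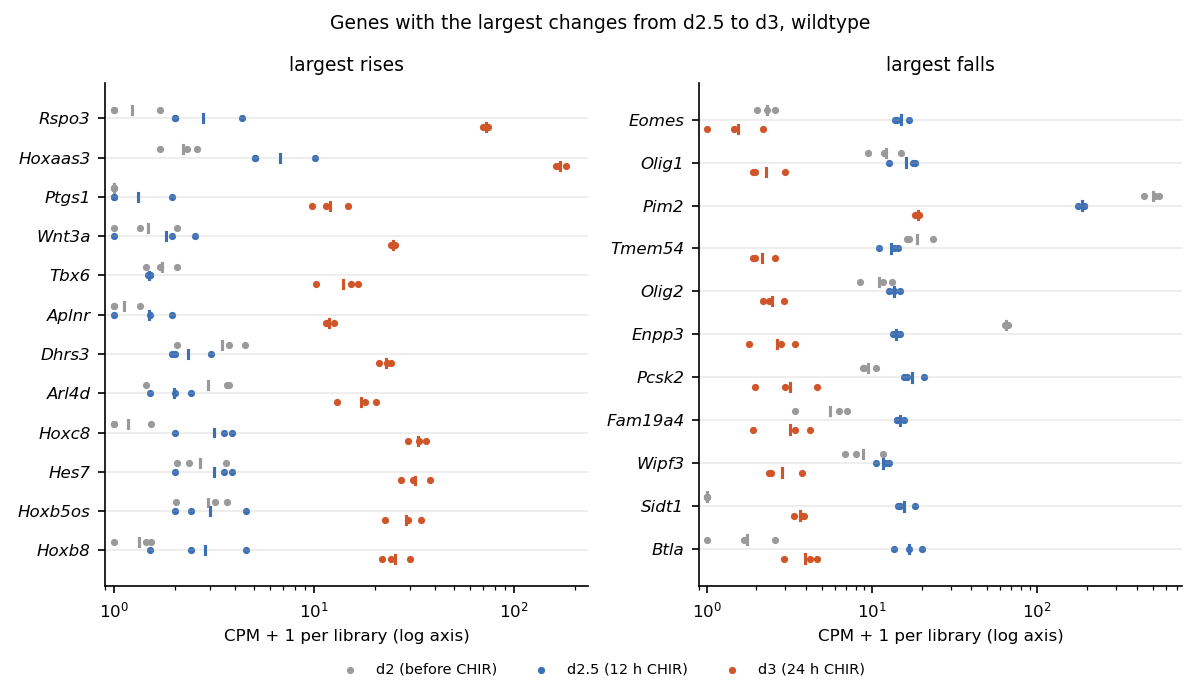
CPM + 1 on a log axis for each wildtype library at d2 (grey), d2.5 (blue) and d3 (orange), for the largest rises (left) and falls (right) named in the text, with short bars at the group means. The risers sit at or below 9.05 CPM at d2.5 and at 8.69 to 180 CPM at d3, and among the falls Eomes, Sidt1 and Btla are high at d2.5 only.

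Several genes that handle retinoids rose. Retinoic acid is made from vitamin A, is bound in the cell by the Crabp proteins and is broken down in the tailbud by Cyp26a1, which keeps the caudal progenitors free of it. Of 16 tested retinoid genes, 6 rose and 2 fell, against 5.91% and 5.56% of all tested genes, with a median log2 fold change of 0.46. Dhrs3, a retinaldehyde reductase gene that limits retinoic acid synthesis, was at 0.953, 2.03 and 1.01 CPM at d2.5 and 23.2, 22.1 and 20 CPM at d3 (15.8-fold, edgeR FDR = 1.44e-10). Crabp2 was at 44.2, 32.9 and 39.2 CPM at d2, 23.3, 20.8 and 19.2 CPM at d2.5 and 113, 96.7 and 108 CPM at d3. It thus fell over the first 12 h and rose over the next (5-fold, edgeR FDR = 1.13e-13), and the difference between the intervals was called (edgeR FDR = 4.51e-10).

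Crabp1 rose 2.27-fold from 110, 103 and 98.7 CPM, and Stra6, which encodes the cellular importer of retinol, rose 2.63-fold from 12.4, 11.2 and 15.2 CPM. Cyp26a1 was at 4.76, 2.54 and 4.55 CPM at d2.5 and 18.3, 18 and 20 CPM at d3 (4.69-fold, edgeR FDR = 1.33e-06). The receptor gene Rarg rose 1.57-fold and Rxrg fell 2.43-fold, a call lost without d3 replicate 2. Aldh1a2, which encodes the main embryonic enzyme of retinoic acid synthesis, was not called, at 5.15 CPM on average at d2.5 and 9.19 at d3.

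Of 28 tested FGF ligand, receptor and response genes, 8 rose and 2 fell between d2.5 and d3, against 5.91% and 5.56% of all tested genes. Between d2 and d2.5, 4 had risen and 9 had fallen, against 13.3% and 12.1%. Dusp4, a phosphatase gene induced by ERK signalling, was at 28.4, 28.7 and 21.3 CPM at d2, 20.5, 17.8 and 22.3 CPM at d2.5 and 68.6, 66.8 and 64.4 CPM at d3 (3.29-fold, edgeR FDR = 4.82e-10). Fgf4 fell from 35, 42 and 44.7 CPM at d2 to 3.33, 4.06 and 3.04 CPM at d2.5 and then rose to 11.1, 8.29 and 12.4 CPM at d3 (edgeR FDR = 0.000673). Etv4, an ETS factor gene of the FGF response, rose 1.91-fold. Dusp6 was at 74.8, 41.2 and 102 CPM and then 132, 128 and 150 CPM, and lost its call without d2.5 replicate 2 or d3 replicate 3. Spred1 and Egr1 fell by 0.82 and 0.81 on the log2 scale, and Egr1 lost its call in 5 of 16 alternative fits.

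BMP and Nodal family genes went both ways, with 6 of 28 higher and 5 lower, against 5.91% and 5.56% of all tested genes. Gdf11, the growth factor gene whose product drives the trunk to tail transition, was at 20, 7.62 and 28.3 CPM at d2.5 and 44.4, 49.3 and 54.4 CPM at d3 (2.65-fold, edgeR FDR = 0.000812). Id1, a BMP response gene, rose 3.07-fold from 11.4, 7.11 and 8.1 CPM. The fallers were Smad7, a feedback inhibitor gene, and 4 genes of the Nodal branch. Nodal itself went from 16.2, 19.3 and 19.2 CPM to 7.24, 10.1 and 9.6 CPM, its co-receptor gene Tdgf1 from 56.2, 53.3 and 62.2 CPM to 18.8, 13.4 and 20.8 CPM, Gdf3 fell 2.13-fold, and Lefty1, which encodes an inhibitor of Nodal, 1.35-fold. Of these calls, Lefty1 was lost in 5 of 16 alternative fits, Smad7 in 3 and Nodal in 1 (without d3 replicate 1).

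Eomes, the T-box gene of early streak mesoderm and endoderm, had the largest fall among genes that met the naming rule (chr9:118478212-118486132). It was at 1.31, 1.59 and 1.03 CPM at d2, 12.9, 15.8 and 13.2 CPM at d2.5 and 0, 0.46 and 1.2 CPM at d3 (21.7-fold lower than at d2.5, edgeR FDR = 1.52e-07). The d2.5 libraries lay above all d2 and d3 libraries, and the difference between the intervals was called (edgeR FDR = 5.13e-09). Eomes was named for the size of its later fall, which favours that call. Other genes of the streak and lateral mesoderm list rose. Of 20 tested, 6 were higher and Eomes alone was lower, against 5.91% and 5.56% of all tested genes. Mixl1, a homeobox gene of the streak, went from 56.7, 39.1 and 82.5 CPM to 151, 148 and 166 CPM (2.61-fold, edgeR FDR = 2.54e-06). Bmp4, a BMP ligand gene, had 2 counts over the d2.5 libraries and 27 at d3, a ratio of 12.1 with an exact 95% interval of 3.04 to 105, and lost its call without d3 replicate 2.

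A rise at 12 h followed by a fall at 24 h was found in further genes. Trh, the thyrotropin-releasing hormone gene, was at 48.5, 56.3 and 48.2 CPM at d2, 243, 246 and 225 CPM at d2.5 and 65.2, 57.5 and 66 CPM at d3 (3.78-fold lower, edgeR FDR = 2.63e-15). Nanog, the pluripotency factor gene, was at 20.1, 19.6 and 25.5 CPM, then 46.2, 50.8 and 65.8 CPM, then 14, 13.4 and 13.2 CPM (4-fold lower, edgeR FDR = 1.76e-09). Tdh, which encodes the threonine dehydrogenase of mouse pluripotent cells, was at 53.3, 45.1 and 58.2 CPM, then 161, 168 and 169 CPM, then 55, 45.1 and 56.4 CPM. Each of these genes was highest in the d2.5 libraries, with no overlap with d2 or d3. Sidt1, a membrane protein gene, had 0 counts at d2 and was at 13.3, 13.7 and 17.2 CPM at d2.5 and 2.9, 2.76 and 2.4 CPM at d3. Btla, known as an inhibitory receptor gene of lymphocytes, was at 19.1, 15.8 and 12.6 CPM and then 1.93, 3.68 and 3.2 CPM.

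Pluripotency and epiblast genes fell. Of 38 tested, 21 fell and 3 rose, with a median log2 fold change of -0.94, against 5.56% of all tested genes called lower. Pim2, a serine/threonine kinase gene, was at 177, 193 and 191 CPM at d2.5 and 17.4, 18.4 and 18 CPM at d3 (10.4-fold lower, edgeR FDR = 3.8e-07), after 548, 442 and 514 CPM at d2. Utf1, an epiblast chromatin factor gene, went from 158, 152 and 169 CPM to 42, 46.5 and 42.8 CPM (edgeR FDR = 0.000162), and L1td1 from 180, 150 and 133 CPM to 43.4, 34.5 and 38.8 CPM. Dnmt3b, a de novo DNA methyltransferase gene, went from 468, 463 and 429 CPM to 133, 135 and 123 CPM (3.48-fold lower, edgeR FDR = 0.000389). For Pim2 the later fall was the steeper on the log2 scale (edgeR FDR = 0.0427), and for Utf1, L1td1 and Dnmt3b the difference between the intervals was not called. Pim2 was named for the size of its later fall, and that choice favours a steeper later fall in this test.

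Pou5f1, which encodes Oct4, was at 13.8, 14.7 and 14.2 CPM and then 7.72, 7.83 and 5.6 CPM and lost its call in 4 of 16 alternative fits. The primed epiblast genes Fgf5 and Otx2 had fallen earlier, from 27.5 to 37.7 CPM and from 44.6 to 55.1 CPM at d2 to at most 5.59 CPM at d2.5. They were not called between d2.5 and d3, where Fgf5 was at 0.965, 0 and 0.4 CPM. The 3 genes of the list that rose were Klf5, which lost its call in 3 of 16 alternative fits, and the FGF ligand genes Fgf4 and Fgf15, the latter with 2 losses.

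The other large falls did not belong to a single pathway list. Olig1 and Olig2, basic helix-loop-helix genes of neural progenitors that lie side by side on chromosome 16, fell together. Olig1 was at 16.7, 11.7 and 17.2 CPM and then 0.965, 0.921 and 2 CPM (11-fold lower, edgeR FDR = 2.4e-08), and Olig2 at 13.8, 12.7 and 11.6 CPM and then 1.93, 1.38 and 1.2 CPM (8.32-fold lower, edgeR FDR = 8.37e-07). Pcsk2, a prohormone convertase gene, fell 7.3-fold from 15.2, 19.8 and 14.7 CPM. Tmem54, Enpp3, Fam19a4 and Wipf3 fell 5.47-fold to 9.8-fold, and of these Enpp3 had already fallen from 63 to 65.6 CPM at d2. Of 19 tested neural progenitor genes, 2 rose (Ncam1 and Crabp1) and 3 fell (Olig2, Sox3 and Tubb3), against 5.91% and 5.56% of all tested genes. Of these falls, Sox3 lost its call in 6 and Tubb3 in 5 of 16 alternative fits. Pax6 and Sox1 had mean levels of 3.11 and 3.79 CPM at d2.5 and were not called.

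**Figure D4:**
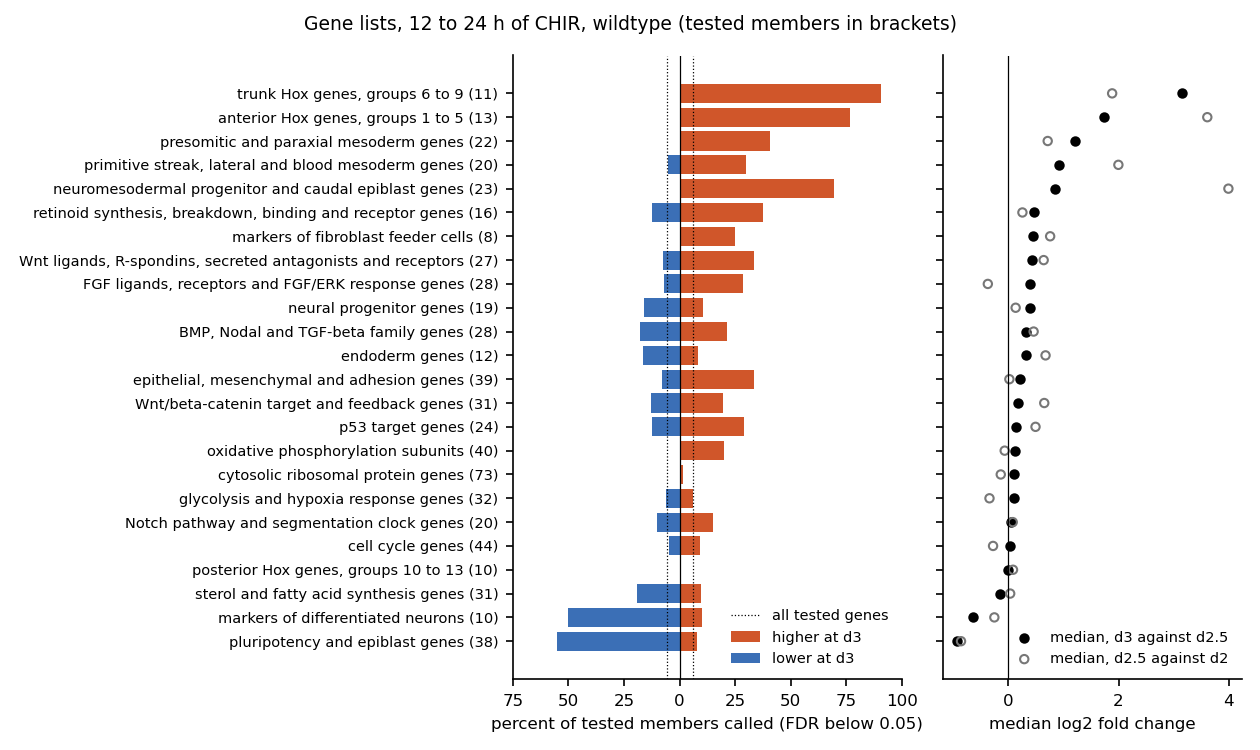
Left, the percent of each list's tested members called higher (orange) or lower (blue) at d3 against d2.5, with the number tested in brackets and dotted lines at 5.91% and 5.56%, the values over all tested genes. Right, the list's median log2 fold change for d3 against d2.5 (filled) and for d2.5 against d2 (open), which share the d2.5 libraries. For d3 against d2.5 the Hox lists of groups 1 to 9 lie farthest to the right and the pluripotency list farthest to the left.

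Genes of epithelial and mesenchymal adhesion changed on both sides. Of 39 tested genes, 13 rose and 3 fell, against 5.91% and 5.56% of all tested genes, so that the count of falls was near that share. The fallers were all epithelial: Cdh1, the E-cadherin gene, went from 151, 149 and 134 CPM to 103, 91.6 and 88 CPM (1.54-fold lower, edgeR FDR = 0.0104) and lost its call without d3 replicate 3, Epcam fell 1.64-fold and Cldn7 1.62-fold, the last with its call lost in 3 of 16 alternative fits. Cdh2, the N-cadherin gene, rose from 29.5, 25.4 and 18.2 CPM to 65.2, 59.8 and 66.8 CPM (2.61-fold, edgeR FDR = 4e-08), with Zeb1, Fn1 and Vim rising 2.15-fold, 1.71-fold and 1.49-fold. Zeb1 lost its call when counts were thinned. Epithelial genes rose too. Krt19 went from 4.29, 7.11 and 10.6 CPM to 33.8, 42.8 and 38.8 CPM (5.25-fold, edgeR FDR = 1.3e-09), and Krt8, Krt18, Cldn4 and Cdh3 rose 1.51-fold to 2.12-fold.

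Genes of general cell functions were counted in the same way, against 11.5% of all tested genes called. Of 44 cell cycle genes 4 rose and 2 fell, with Ccne1, the cyclin E1 gene, 1.81-fold lower and Cdk6 1.81-fold higher. The calls of Pcna and Cdt1 were each lost in 7 of 16 alternative fits, and those of Cdk4 and Cdkn1c in 5. Of 24 p53 target genes 7 rose and 3 fell, with the calls of Ei24 and Sesn2 each lost in 6 of 16 alternative fits. Cdkn1a, the p21 gene, was at 111, 98.8 and 96 CPM at d2, 556, 553 and 585 CPM at d2.5 and 386, 410 and 400 CPM at d3. Of 40 oxidative phosphorylation genes 8 rose and 0 fell, all under 2-fold and with a median log2 fold change of 0.13. Ndufa4, Cox5a and Cox7a2 kept their calls in all 16 alternative fits. Atp5o lost its call in 11 of 16, Cox8a in 5, Cox6b1 and Ndufb8 in 4 each and Cox4i1 in 3. Of 31 sterol and fatty acid synthesis genes 3 rose and 6 fell. Of these rises, Acss2 lost its call in 11 of 14 alternative fits and Hsd17b7 in 9 of 16. Of the falls, Msmo1 lost its call in 8 of 16, Hmgcs1 in 6 and Fdft1 in 2. Of 32 glycolysis and hypoxia genes 2 rose (the glucose transporter genes Slc2a1 and Slc2a3) and 2 fell (Pdk1 and Slc16a3). Of 73 ribosomal protein genes 1 rose (Rpl12, which lost its call in 8 of 16 alternative fits), with a median log2 fold change of 0.10.

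Markers of other cell types that such cultures could hold were measured as well, against 5.91% of all tested genes called higher and 5.56% lower. Of 12 tested endoderm genes 1 rose and 2 fell, the 2 being Trh and Apoe. The riser, Spink1 (edgeR FDR = 0.0466), lost its call in 9 of 16 alternative fits. The defining factors Sox17 and Foxa2 were at 14.3 and 2.34 CPM on average at d2.5 and 20.7 and 4.71 CPM at d3, neither called. Of 8 tested markers of fibroblast feeder cells 2 rose, Col1a2 and Fbln1. Their summed level was 79.9 to 103 CPM at d2.5 and 136 to 150 CPM at d3, while Col3a1, Postn and Lum were too low to be tested. Of 10 tested markers of differentiated neurons 1 rose (Gad1) and 5 fell (Elavl3, Nefm, Nefl, Rbfox3 and Tubb3), with a summed level of 369 to 420 CPM and then 286 to 302 CPM. Of these falls, Rbfox3 lost its call in 6 and Elavl3 in 2 of 16 alternative fits. The part of such cells in the changes given above was not tested.

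The same interval was then compared in Nr6a1-/- cells, in separate libraries. The 3 d3 and 3 d2.5 Nr6a1-/- libraries gave 1930 called genes (15.9%), with 7.43% of all tested genes higher and 8.45% lower. Of the 1394 wildtype calls, 719 (51.6%) were called in the same direction in Nr6a1-/- cells, which was 37.3% of the Nr6a1-/- calls, and 8 in the opposite direction. The sign was the same for 1253 wildtype calls (89.9%), against 66.6% of all tested genes. Across the 12149 genes the log2 fold changes had a Pearson r of 0.616 and a Spearman rho of 0.464, where genes are not independent replicates. All 24 genes named by the rule changed in the same direction in Nr6a1-/- cells, and 23 of them were called there.

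The change itself differed between genotypes for 99 genes (0.815%), of which 49 were among the wildtype calls. This number ranged from 47 without d2.5 wildtype replicate 1 to 245 without d2.5 wildtype replicate 3. Rspo3, Wnt3a, Tbx6, Hes7, Cdx4 and Fgf8 were not among these genes. Trh fell further in Nr6a1-/- cells, with log2 fold changes of -1.92 in wildtype and -3.33 in Nr6a1-/- cells (difference -1.41, edgeR FDR = 1.69e-05), and Cited1 rose further, with 1.59 and 2.84 (difference 1.25, edgeR FDR = 0.000205). Crabp2 rose less, with 2.32 and 1.39 (difference -0.93, edgeR FDR = 0.0139). Nr6a1 transcripts rose 0.85 in wildtype and 1.36 in Nr6a1-/- cells on the log2 scale, which checks nothing about the deletion, since 3′ reads lie outside exon 4.

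**Figure D5:**
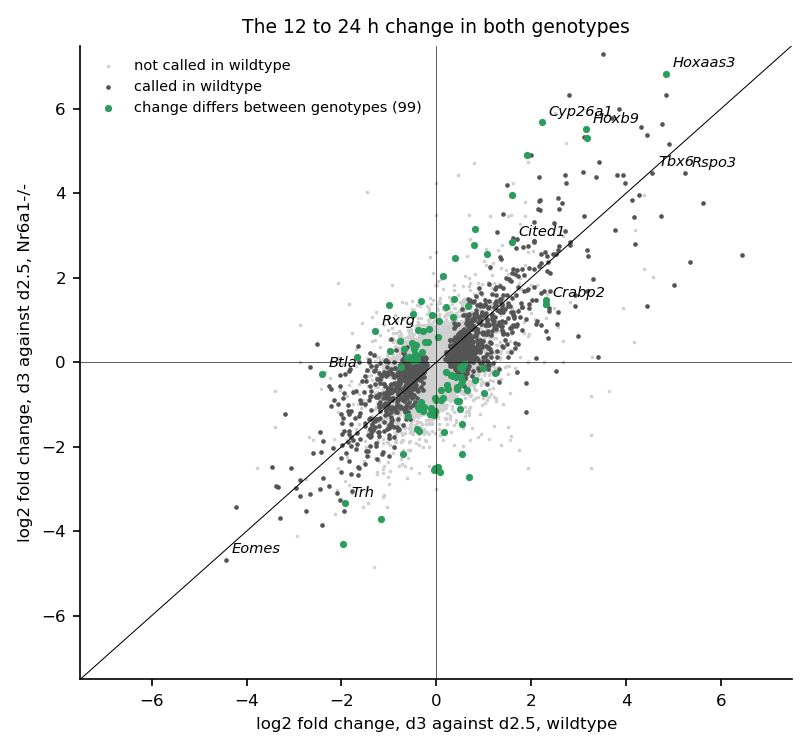
Log2 fold change, d3 against d2.5, of every tested gene in wildtype (x axis) and Nr6a1-/- cells (y axis), with wildtype calls in dark grey and the 99 genes whose change differs between genotypes in green. The diagonal marks equal change, 89.9% of the wildtype calls have the same sign in both genotypes, and Trh, Cited1 and Crabp2 are among the green points off the diagonal.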

How the data were processed

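RNA was measured in 30 libraries, in 10 groups of 3 by stage and genotype, as read from the labels. Per the labels and methods, the authors made 3′-end libraries from poly(A)-primed RNA with a molecular identifier and aligned reads with STAR to mm10, and they deposited unnormalized gene counts. The counting tool, annotation, use of strand and collapsing of identifiers are not given in the sources used here. The deposited tables of the authors' own comparisons between genotypes were not used.

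Of 54134 genes, 12149 were tested, those that exceeded both 10 counts and 2 CPM in 2 or more libraries of a group; these held 99.2% or more of every library's counts. TMM factors were used, and the fit was made in edgeR 4.0.16 (R 4.3.3) by the quasi-likelihood test with 20 residual degrees of freedom, and p-values were adjusted over all tested genes by the Benjamini-Hochberg method. Standard errors were derived from the F statistic (absolute log2 fold change over its square root). They are approximate, and are not reliable for large changes or for genes with few counts. Folds from 3 counts or fewer are ratios of summed counts with an exact 95% interval. Genes named were the 12 largest rises and 12 largest falls among calls without overlap whose mean reached 10 CPM in either group, members of the gene lists, and Nr6a1. Some genes that meet this rule are not reported here. The members and lists were chosen with earlier results of these data known. Hoxaas3, Hoxb5os and the other gene positions are from GENCODE release 21 (GRCm38), and promoters from RefSeq. The alternatives were RLE factors, no factors, no filter, a stricter filter, fewer libraries in the fit, a replicate block, DESeq2 1.42.0, limma 3.58.1 with voom, thinning to 1570714 counts, and leaving out each library. The procedure was tested on simulated data.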

Additional observations from a re-analysis of the deposited data

Results flagged for a closer look

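Of 196 results examined for a difference between genotypes, 15 had a 12 h to 24 h change that differed between Nr6a1-/- and wildtype cells by edgeR's interaction test. Over all tested genes, 99 (0.815%) differed. The 196 were mostly chosen for their wildtype change, which this test subtracts, so that the choice favours a difference. The values below are the Nr6a1-/- log2 fold change minus the wildtype one.

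Trh (-1.41), Cited1 (1.25), Ccng1 (-0.62) and Trp53inp1 (-0.77) passed the threshold in all 12 fits that left out 1 library. Ccng1, a p53 target gene, had log2 fold changes of 0.50 in wildtype and -0.12 in Nr6a1-/- cells, and Trp53inp1, another, had 0.42 and -0.35. Hoxaas3 (1.99), Lefty1 (0.84) and Crabp2 (-0.93) passed in 11 of 12, and were lost without d2.5 wildtype replicate 1, d3 Nr6a1-/- replicate 1 and d2.5 wildtype replicate 2. Lefty1 fell in wildtype (-0.44) and rose in Nr6a1-/- cells (0.41). Rxrg (2.02) passed in 9 of 12, with -1.28 in wildtype and 0.74 in Nr6a1-/- cells.

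The other differences passed in fewer than 6 of the 12 fits. Btla (2.13) and Krt18 (-0.64) passed in 5, Axin2 (-0.60) in 4, Sp8 (-1.13) and Hoxa5 (1.49) in 3, and Cyp26a1 (3.47) and Hoxb9 (2.37) in 2. Axin2 had log2 fold changes of 0.30 in wildtype and -0.30 in Nr6a1-/- cells. The difference between genotypes and that between 1 clone and its parent line cannot be told apart.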

How the results depend on the processing

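The count of genes called between d2.5 and d3 was 1394, and ranged from 943 with counts thinned to the smallest total to 1451 with only wildtype libraries. DESeq2 called 1109 and limma voom 1363. Thinning left 474 higher calls of 718. Leaving out 1 library gave 443 lower calls without d3 wildtype replicate 3, up to 528 without d2.5 wildtype replicate 3. The share of calls that were higher was 51.5%, and 46.5% without normalization factors. Genes whose change differed between the intervals numbered 681 after thinning, and from 691 without d2.5 wildtype replicate 1 to 1100 without d2 wildtype replicate 2, with 757 without d2.5 wildtype replicate 2, against 1187. Genes whose change differed between genotypes numbered 359 with no filter on low counts, 180 with only the libraries compared and 62 after thinning, against 99. Leaving out 1 library gave from 47 (without d2.5 wildtype replicate 1) to 245 (without d2.5 wildtype replicate 3), with 48 without d3 wildtype replicate 3, 53 without d2.5 wildtype replicate 2, and for Nr6a1-/- cells 59 and 56 without d2.5 replicates 1 and 3 and 63 and 64 without d3 replicates 1 and 2. The cause of these changes was not tested. For single genes, 2845 alternative values kept their call, 262 lost it, 10 gained it and 0 changed sign. Same-numbered d2.5 and d3 wildtype libraries deviated together with correlations of 0.0045, 0.081 and 0.144 over 8266 genes, and the numbers were not taken to pair the libraries. With the replicate block, 1438 genes were called between d2.5 and d3, and 149 differed between genotypes.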

Other observations

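Genes of the amino acid stress response, which the factor ATF4 drives, were mostly lower at d3 in wildtype cells. The list of 45 genes was drawn up after values had been seen, so that its counts are a description. Of these, 28 fell and 1 rose (Pycr1), with a median log2 fold change of -0.48. Atf4 itself was at 257, 261 and 223 CPM at d2.5 and 152, 151 and 144 CPM at d3 (edgeR FDR = 1.9e-06). Trib3, a pseudokinase gene induced by ATF4, went from 47.2, 53.9 and 51.1 CPM to 10.6, 12.4 and 15.2 CPM (edgeR FDR = 4.66e-09).

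In Nr6a1-/- cells the median of the same genes was 0.11, with 9 higher and 3 lower, and the change differed between genotypes for 15 of the 45, against 0.815% of all tested genes. Slc7a1, a cationic amino acid transporter gene, was at 40.5, 35.1 and 36.4 CPM at d2.5 and 27.5, 21.6 and 30 CPM at d3 in wildtype. In Nr6a1-/- cells it was at 20.7, 18.6 and 25.8 CPM and then 49.8, 42.3 and 51.3 CPM, the opposite direction (difference 1.64 on the log2 scale, edgeR FDR = 3.38e-05). The medium was renewed every 24 h, and the part of that schedule in these values was not tested.

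Neuronal intermediate filament genes fell in wildtype: 5 of 6 (Nefl, Nefm, Nefh, Ina and Prph), a list also drawn up after values had been seen. Ina went from 78.6, 69.1 and 74.4 CPM to 27, 27.2 and 31.6 CPM (edgeR FDR = 4.61e-07), and Prph from 94.3, 84.3 and 83.5 CPM to 44.9, 44.7 and 42 CPM (edgeR FDR = 6.24e-06).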
